A study of Mus musculus with 2 samples.

Results

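The genes described here are Lrat, Rdh10, Aldh1a1, Aldh1a2, Dhrs3, Cyp26a1, Cyp26b1 and Rarb, 8 genes of retinoid storage, synthesis, breakdown and response among the 28200 gene symbols listed in the deposited matrices. They were chosen by symbol from a list of retinoid genes, with earlier results of these data known, and all 8 are listed in both libraries. Their levels were taken in single liver cells of mice with partial inferior vena cava ligation (pIVCL), an operation that hinders the outflow of blood from the liver. The labelled control came from a mouse with floxed Ctgf alleles alone (genotype Ctgf fl/fl), and the knockout-labelled library from a mouse with the same floxed alleles and Cdh5-CreERT2, a Cre recombinase driven by the promoter of the endothelial gene Cdh5 and activated by tamoxifen. Both animals had pIVCL, the protocol describes the knockout animal as male and the other as its littermate, and neither an age nor a tamoxifen schedule is given in the sources used here. Before capture, most hepatocytes had been removed by slow centrifugation, and dead cells and erythrocytes by a density gradient. The sample titles contradict the genotype labels, while the library names go with the genotypes, so values are given for the control-labelled and the knockout-labelled library. With 1 mouse and 1 library per label there is no replicate check, genotype and animal cannot be told apart, and no test was possible. All intervals are at 95% and cover counting error only.

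Retinol that reaches the liver is stored as retinyl esters in the droplets of hepatic stellate cells, the pericytes of the sinusoid, where the enzyme encoded by Lrat makes the esters. Retinol is oxidised to retinaldehyde, a step that Rdh10 catalyses, and retinaldehyde is oxidised to retinoic acid by the enzymes of Aldh1a1 and Aldh1a2, while Dhrs3 reduces retinaldehyde back to retinol. Cyp26a1 and Cyp26b1 degrade retinoic acid, and Rarb encodes a nuclear receptor for it. Rarb, Cyp26a1 and Dhrs3 are also known as genes that retinoic acid induces in many cells.

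The retinoic acid receptor binds direct repeats of a 6-base half-site, and the type with a 5-base gap (DR5) is known from the promoters of Rarb and Cyp26a1. The RefSeq table of start-site windows (build GRCm38.p6, from 250 bases before to 50 bases after the start) held 10 windows for 7 of the 8 genes, and Rdh10 had none in it. These windows were searched on both strands for 2 half-sites of the form AGGTCA or GGGTCA or else AGTTCA or GGTTCA in the same orientation with 5 bases between them. Rarb and Cyp26a1 each held 1 such repeat, and the windows of Cyp26b1, Lrat, Dhrs3, Aldh1a1 and Aldh1a2 held none. Of all windows in the table, 32 of 32851 (0.0974%) held one, while a single half-site was present in 43.7%. The windows of Rarb, Cyp26a1 and Cyp26b1 are printed because the first 2 hold the repeat and the third belongs to the gene with the largest difference in endothelial cells. They are written 5′ to 3′ on the strand of the gene, with the repeat in capitals. Rarb lies on the minus strand at chr14:16575427-16575726, Cyp26a1 on the plus strand at chr19:37697558-37697857 and Cyp26b1 on the minus strand at chr6:84593761-84594060.
Rarb: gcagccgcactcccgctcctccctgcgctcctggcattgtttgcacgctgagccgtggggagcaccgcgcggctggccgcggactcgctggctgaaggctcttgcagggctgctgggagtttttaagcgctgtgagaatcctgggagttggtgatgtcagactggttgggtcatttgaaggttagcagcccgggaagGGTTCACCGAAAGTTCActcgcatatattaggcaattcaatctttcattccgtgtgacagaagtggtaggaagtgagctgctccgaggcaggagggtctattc
Cyp26a1: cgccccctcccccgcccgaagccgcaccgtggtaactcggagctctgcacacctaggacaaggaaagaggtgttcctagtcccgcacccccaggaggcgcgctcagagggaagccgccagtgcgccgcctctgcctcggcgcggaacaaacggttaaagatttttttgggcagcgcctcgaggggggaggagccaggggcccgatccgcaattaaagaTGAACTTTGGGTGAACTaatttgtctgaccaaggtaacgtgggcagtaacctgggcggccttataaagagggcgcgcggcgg
Cyp26b1: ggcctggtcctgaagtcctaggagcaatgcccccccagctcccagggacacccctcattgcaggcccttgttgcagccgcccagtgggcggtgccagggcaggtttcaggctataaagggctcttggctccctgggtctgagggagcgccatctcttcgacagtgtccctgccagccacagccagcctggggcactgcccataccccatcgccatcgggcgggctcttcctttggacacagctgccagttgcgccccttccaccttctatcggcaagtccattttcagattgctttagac
In Rarb the repeat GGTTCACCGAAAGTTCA runs from position -53 to -37 relative to the start site, on the strand of the gene. In Cyp26a1 the repeat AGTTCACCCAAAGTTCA lies on the opposite strand, from -32 to -16, and so appears in the printed strand as its reverse complement. A match is a description of letters and shows no binding.

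Each deposited matrix listed 10000 barcodes, with 106208933 counts in the control-labelled library and 129802501 in the knockout-labelled library, and 2 barcode names occurred in both. After filters on cells and doublets, 7546 and 8361 cells remained, of which 5301 and 6765 were assigned to a class by markers that hold none of the 8 genes. The cells assigned to no class were 29.8% and 19.1%. The classes compared were stellate cells (322 and 483 cells, control label first here and below), contractile mesenchymal cells (191 and 37), mesothelial cells (43 and 15), hepatocytes (269 and 85) and endothelial cells (1724 and 3389). Each class showed its own marker list: all 13 stellate, all 10 endothelial, all 11 mesothelial, all 9 hepatocyte and all 7 contractile markers had counts in their class in both libraries. Ccn2, the current symbol of the floxed gene Ctgf, had 975 CPM (counts scaled to a common total per class) in endothelial cells of the control-labelled library and 4.84 CPM in those of the knockout-labelled library. In stellate cells it had 959 and 1044 CPM, in contractile mesenchymal cells 1826 and 2552 CPM. In mesothelial cells Ccn2 had 369 counts (505 CPM) and 2 counts (6.22 CPM), a log2 ratio of -6.34 (-9.39 to -4.48). Levels are CPM of the counts of all cells of a class. A gene was called measured if it had 20 or more counts in the libraries combined and 10 or more CPM in either, and higher or lower means at least 1.5-fold apart by size alone.

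By that rule 2 of the 6 measured members were higher and 2 lower in endothelial cells of the knockout-labelled library, while 5.26% of all 9159 measured genes were higher there and 12.5% lower, or 17.8% either way. The 2 lower were Lrat and Aldh1a1. Lrat had 4.80 CPM in the knockout-labelled library, where B and T cells, used as the level of free RNA, had 5.31 CPM. Aldh1a1 had 16.5 and 9.19 CPM against 20.1 and 8.85 CPM. Rdh10, also measured, had 15.9 and 15.4 CPM against 14.4 and 17.4 CPM. Subtracting the B and T cell level left 2 members at least 1.5-fold apart. In stellate cells 0 of 5 were higher and 1 was lower, beside 7.83% and 8.94% of all measured genes, or 16.8% either way. In contractile mesenchymal cells 1 of 6 was higher and 1 lower, beside 13.2% and 20.9% of genes, or 34.1% either way, and both of these ratios had intervals that include 0. In mesothelial cells 1 of 4 was higher and 1 lower, beside 17.8% and 22.8%, or 40.6% either way. In hepatocytes 1 of 4 was higher and 1 lower, beside 10% and 56.7%, or 66.8% either way. The higher member there, Cyp26a1, reached 10 CPM only in the knockout-labelled library (4.17 and 26.7 CPM). So did Cyp26b1 in contractile mesenchymal cells (5.62 and 10.4 CPM). Rdh10 in contractile mesenchymal cells and Lrat and Aldh1a1 in endothelial cells reached it only in the control-labelled library. The rule for measured genes thus fixed the direction of these members, and it was the same for all genes. The members were chosen with earlier results of these data known, in which Cyp26b1 was among the genes of an endothelial state described below. The counts of members are therefore descriptions. The median log2 ratio of the measured members was 0.23 in endothelial, -0.18 in stellate, -0.33 in contractile mesenchymal, 0.35 in mesothelial cells and 0.37 in hepatocytes. The same median over all measured genes was -0.048, 0.010, -0.085, -0.057 and -0.71. The hepatocyte value means that most genes of that class were lower in the knockout-labelled library, and its ratios are read against that shift below.

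**Figure D1:**
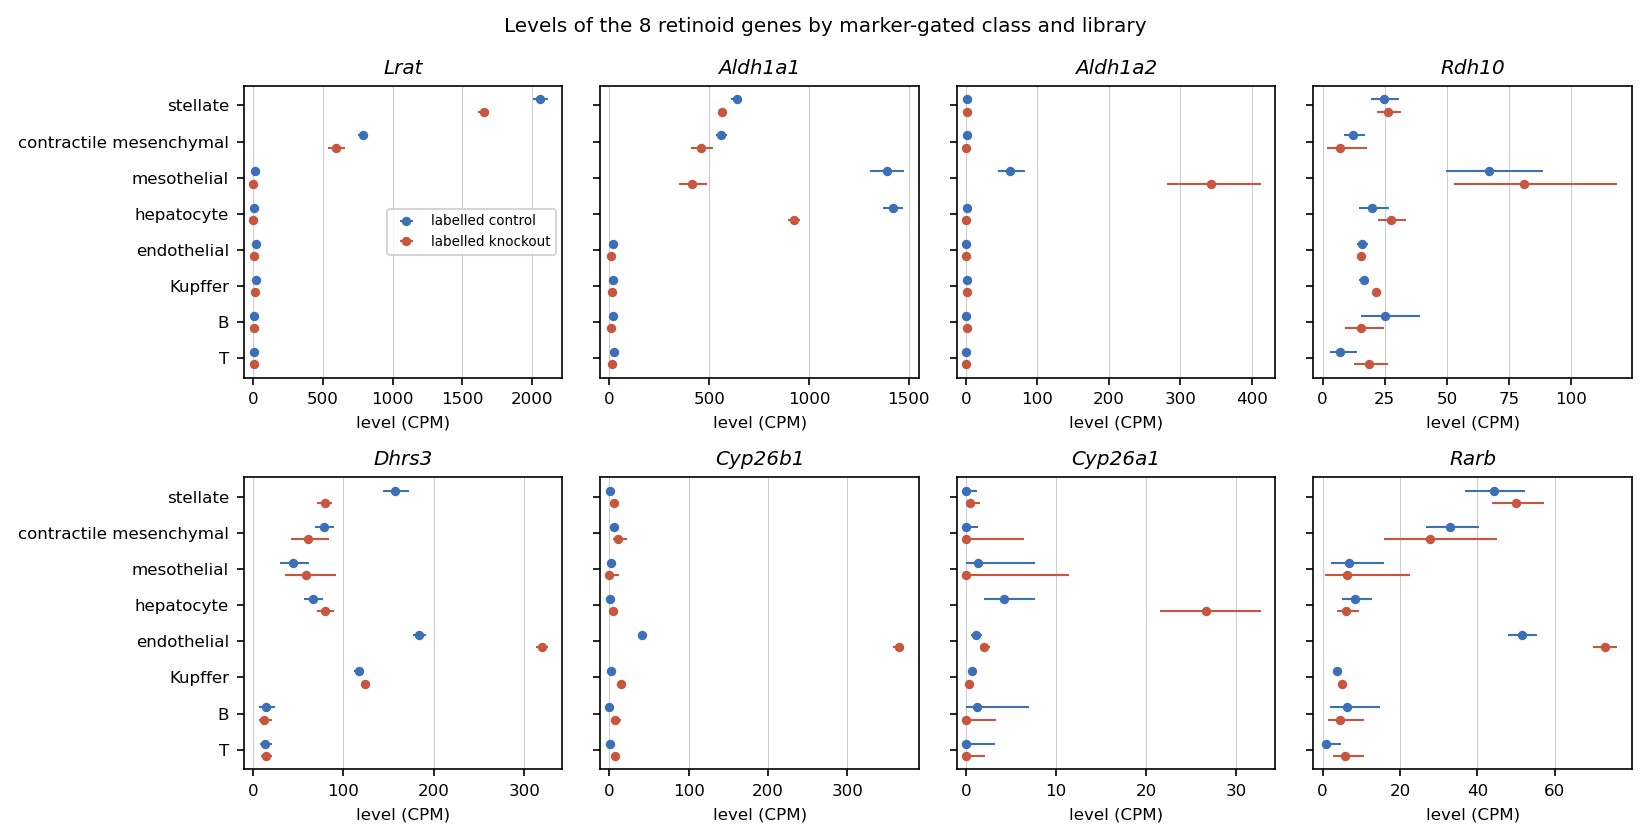
Level of each of the 8 genes in CPM (horizontal axis, linear, its own scale for each gene) in 8 marker-gated classes, with 1 point per library and bars for the exact 95% Poisson interval of the summed counts. Lrat peaked in stellate cells at 2060 and 1653 CPM, and Cyp26b1 stood at 365 CPM in endothelial cells of the knockout-labelled library against 40.6 CPM in the control-labelled library.

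Storage was represented by Lrat, the esterifying enzyme. In stellate cells it had 2060 CPM (2009 to 2112) in the control-labelled library and 1653 CPM (1615 to 1691) in the knockout-labelled library, a log2 ratio of -0.32 (-0.37 to -0.27). Nearly every stellate cell carried it: 99.4% and 97.9% of cells had a count, against 4.15% and 2.66% of T cells, which are not known to store retinoid. Median counts per cell were 7974 and 8131 in stellate cells and 5056 and 4891 in T cells. After thinning each cell to 3000 counts, the shares were 96.3% and 95.2% of stellate cells and 3.63% and 1.33% of T cells. Contractile mesenchymal cells carried, as a class, both stellate markers and Acta2, Tagln or Myh11. Their Lrat level was 787 CPM (754 to 820) and 596 CPM (534 to 662), a log2 ratio of -0.40 (-0.57 to -0.24). Neither difference passed 1.5-fold. Unlike the stellate class, the contractile class needed no lowest stellate score, so other mesenchymal cells could enter it. Lrat was counted in 89.0% and 73.0% of its cells. Fibroblast markers summed to 149 and 699 CPM there, against 11.5 and 23.6 CPM in stellate cells. Grouping the cells by unsupervised clusters, which put 639 and 548 cells into the stellate class, turned the stellate ratio of Lrat to 0.14. The clusters left 27 and 0 cells in the contractile class, against 191 and 37 by markers, and the latter had the lower Lrat. The part of this different mix of cells in the change of sign was not tested.

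In both libraries the level of Lrat was lowest in the cells with the most contractile markers, but its course below that differed. Bins from 0.4 up hold the contractile class, which needed no lowest stellate score. The part of other mesenchymal cells in their levels was not tested. In the control-labelled library it was 2318 CPM in the 49 cells with a contractile marker score below 0.1, 2361 CPM between 0.1 and 0.2, 2006 CPM between 0.2 and 0.3 and 1651 CPM between 0.3 and 0.4. The cells scoring 0.4 to 0.6 had 1138 CPM and the 95 cells above 0.6 had 517 CPM. In the knockout-labelled library the first 4 bins showed no such decline, at 1453, 1718, 1649 and 1771 CPM. There the interval of the bin from 0.3 to 0.4 (1646 to 1903 CPM) lay above that of the lowest bin. The last 2 bins of this library had 1337 and 162 CPM and held only 19 and 18 cells. The intervals of the libraries did not overlap in the lowest bin (2171 to 2474 and 1371 to 1538 CPM) or in the highest (482 to 553 and 123 to 209 CPM). Nor did they overlap between 0.1 and 0.2 (2265 to 2461 and 1658 to 1779 CPM) or between 0.2 and 0.3 (1907 to 2109 and 1584 to 1717 CPM). They overlapped in the bins from 0.3 to 0.4 and from 0.4 to 0.6, where the knockout-labelled library had the higher level. In all, 62 and 28 cells lay within 0.05 of the score of 0.4 that separates the stellate from the contractile class.

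**Figure D2:**
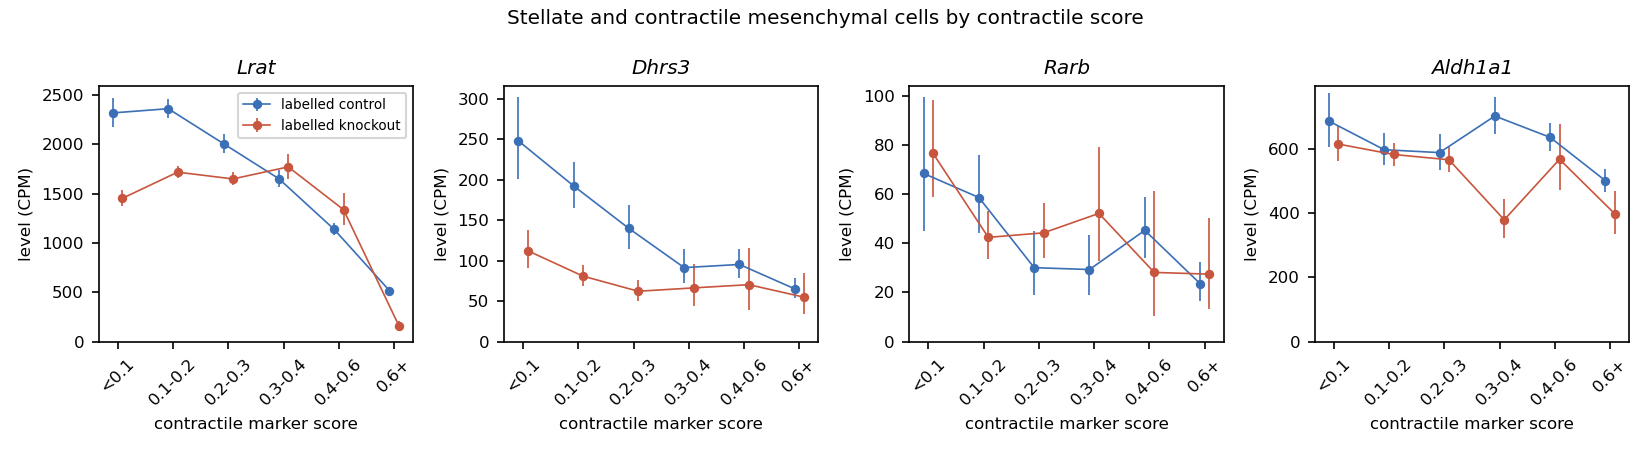
Level in CPM of Lrat, Dhrs3, Rarb and Aldh1a1 (vertical axes, linear) in stellate and contractile mesenchymal cells binned by contractile marker score (horizontal axis), with 1 line per library and bars for exact 95% Poisson intervals. From the lowest to the highest bin of the control-labelled library, Lrat went from 2318 to 517 CPM and Dhrs3 from 248 to 65.2 CPM.

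Outside the mesenchyme Lrat was low. Endothelial cells had 19.2 CPM (17.0 to 21.7) and 4.80 CPM (4.03 to 5.67), a log2 ratio of -2.003 (-2.31 to -1.70). B and T cells together, used as the level of free RNA, had 8.75 and 5.31 CPM, so the endothelial level of the knockout-labelled library was not above that background. Stellate markers summed to 356 and 249 CPM in endothelial cells and to 274 and 150 CPM in B cells. Their part in the endothelial difference was not tested. Kupffer cells, the resident macrophages, had 22.1 and 14.98 CPM of Lrat and 473 and 541 CPM of stellate markers.

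Of the genes of synthesis, Rdh10 makes retinaldehyde from retinol. It was low in every class compared. Its highest level was in mesothelial cells, the lining of the liver surface, at 67.1 CPM (49.6 to 88.7) and 80.9 CPM (52.8 to 119). Stellate cells had 24.6 and 26.5 CPM, hepatocytes 20.02 and 27.5 CPM, and endothelial cells 15.9 and 15.4 CPM. The B and T cell level was 14.4 and 17.4 CPM, so the endothelial value was not above it. The endothelial log2 ratio was -0.048 (-0.28 to 0.19) and the stellate ratio 0.11. The hepatocyte ratio was 0.46 (-0.055 to 0.99), and 1.14 with TMM factors, which take out the general shift of that class. In contractile mesenchymal cells Rdh10 had 35 and 4 counts, and the ratio of -0.83 had an interval of -2.78 to 0.66.

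Aldh1a1, which makes retinoic acid, was high in several classes. Hepatocytes had 1420 CPM (1373 to 1469) and 925 CPM (893 to 957), mesothelial cells 1389 CPM (1305 to 1478) and 414 CPM (346 to 490). Stellate cells had 637 CPM (609 to 667) and 564 CPM (542 to 587), and contractile mesenchymal cells 560 and 461 CPM. Mesothelial cells and hepatocytes thus led in the control-labelled library with overlapping intervals, while in the knockout-labelled library hepatocytes led and the mesothelial interval overlapped that of contractile mesenchymal cells (407 to 519 CPM). Of stellate cells, 96.0% and 92.1% had a count, and of T cells 4.66% and 3.99%. After thinning, these shares were 79.5% and 73.3% of stellate and 3.11% and 2.99% of T cells.

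The largest difference of Aldh1a1 was in mesothelial cells, with a log2 ratio of -1.75 (-2.02 to -1.49). It rests on 43 and 15 cells, with 1015 and 133 counts. In stellate cells the ratio was -0.18. In hepatocytes it was -0.62, close to the median of -0.71 over all genes of that class, and it became 0.057 with TMM factors, which are edgeR's scaling for such a shift. It was also 0.034 with cells thinned to equal depth. Either of these puts the hepatocyte levels of the libraries within 1.5-fold of each other. In endothelial cells Aldh1a1 had 16.5 and 9.19 CPM, close to or below the 20.1 and 8.85 CPM of B and T cells.

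Aldh1a2, the other gene of retinoic acid synthesis, was close to 0 in the other classes compared and measured only in mesothelial cells among them. In mesothelial cells it had 61.6 CPM (44.9 to 82.4) in the control-labelled library and 342 CPM (281 to 412) in the knockout-labelled library, a log2 ratio of 2.47 (1.96 to 3.01) on 45 and 110 counts. It was counted in 41.9% of 43 cells and 80% of 15 cells, and B and T cells together had 0 and 3 counts. Thinned shares were 23.3% and 46.7%. The pair of synthesis genes thus differed in opposite directions in this class, with Aldh1a1 lower and Aldh1a2 higher in the knockout-labelled library. The mesothelial class of the knockout-labelled library also carried more stellate markers, 7137 against 2225 CPM over 9 and 12 of 13 genes with counts, and more fibroblast markers, 1092 against 762 CPM over 6 and 4 of 7 genes. Mesothelial markers themselves summed to 6530 and 8393 CPM. The part of these markers in the differences was not tested. With clusters in place of the marker gate, the ratio of Aldh1a2 was 1.69 and that of Aldh1a1 -1.60.

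Dhrs3, which returns retinaldehyde to retinol, was measured in all 5 classes and differed in opposite directions in endothelial and stellate cells. Endothelial cells had 184 CPM (177 to 191) and 320 CPM (313 to 326), a log2 ratio of 0.80 (0.74 to 0.86). Stellate cells had 157 CPM (143 to 172) and 79.2 CPM (71.2 to 87.9), a ratio of -0.99 (-1.19 to -0.79). The difference between these ratios was not tested, since each label has 1 library. Kupffer cells had 117 and 124 CPM, hepatocytes 66.3 and 80.0 CPM, contractile mesenchymal cells 78.3 and 60.6 CPM and mesothelial cells 43.8 and 59.1 CPM. B cells had 13.9 and 12.7 CPM and T cells 13.03 and 13.9 CPM, so by summed counts all the named classes lay above the level of free RNA. The mesothelial value of the knockout-labelled library rests on 19 counts in 4 of 15 cells, and 0% of these cells had a count after thinning. The 36 cholangiocytes of the knockout-labelled library had 310 CPM.

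A count of Dhrs3 was seen in 62.1% and 82.9% of endothelial cells and in 4.66% and 6.64% of T cells, at median depths of 6793 and 7307 counts in endothelial cells. After thinning, 38.0% and 57.7% of endothelial cells and 4.15% and 3.32% of T cells had one. In stellate cells the share went from 59.0% to 45.3%, and from 32.3% to 23.8% after thinning. The stellate difference was seen along the contractile score as well: the level was 248 and 112 CPM in the lowest bin, 193 and 81.0 CPM in the next, 140 and 62.2 CPM between 0.2 and 0.3, and 91.5 and 66.4 CPM between 0.3 and 0.4. The intervals of the first 3 bins did not overlap between the libraries. The clusters gave a stellate ratio of -0.37, short of 1.5-fold, and thinning one of -0.70.

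Breakdown of retinoic acid was represented by Cyp26b1 and Cyp26a1. Cyp26b1 was a gene of endothelial cells, at 40.6 CPM (37.4 to 44.1) in the control-labelled library and 365 CPM (358 to 372) in the knockout-labelled library, 576 and 10484 counts. The log2 ratio was 3.17 (3.05 to 3.29), or 8.98-fold higher. It had a count in 16.2% (14.5 to 18.1) and 60.0% (58.3 to 61.6) of endothelial cells, while in T cells the shares were 0.518% and 3.32%. After thinning, the shares were 8.93% and 43.5% of endothelial cells, and the share of T cells in the knockout-labelled library was 1.66%. The tenth of cells with the most counts held 81.4% of all Cyp26b1 counts in the control-labelled library and 50.5% in the knockout-labelled library. Such a share is high by construction where few cells have a count, so these values cannot be compared between the libraries. The highest count in a single cell was 14 and 53.

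Free RNA of Cyp26b1 was also higher in the knockout-labelled library. B and T cells together had 1 count (0.51 CPM) and 19 counts (6.73 CPM). Stellate cells, at 0.67 and 5.79 CPM, and hepatocytes, at 0.42 and 4.64 CPM, were not above these levels. Contractile mesenchymal cells had 16 and 6 counts, and subtracting the B and T cell level turned their ratio of 0.89 to -0.48. Kupffer cells had 1.30 CPM (0.84 to 1.92) and 14.0 CPM (12.6 to 15.5), above the pooled B and T cell values, although the interval of B cells in the knockout-labelled library reached 14.3 CPM. Endothelial markers summed to 866 and 1424 CPM in Kupffer cells, against 301 and 447 CPM in T cells. Cdh5, which is among these markers, had 318 and 612 CPM and was counted in 76.7% and 94.8% of Kupffer cells. Whether these Cdh5 counts came from the Kupffer cells themselves or from endothelial RNA was not tested, so Cdh5 was not used to measure either. The part of endothelial RNA in the Kupffer value of Cyp26b1 was not tested.

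The endothelial difference was present in every endothelial state examined. Sinusoidal cells were split by zone and, separately, by state, and large vessel cells were kept apart. Pericentral sinusoidal cells, which line the sinusoid near the central vein, had 89.5 CPM (72.1 to 110) and 500 CPM (478 to 523). Periportal cells had 38.5 CPM (33.5 to 43.9) and 388 CPM (378 to 398), and cells of neither zone 26.1 and 257 CPM. Large vessel cells had 94.2 CPM (75.2 to 117) and 299 CPM (246 to 361). In the control-labelled library the pericentral and large vessel cells were therefore highest and overlapped each other, and in the knockout-labelled library the pericentral cells were highest of these 4 groups.

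By state, cells with an angiogenic marker set (Esm1, Angpt2, Apln, Pgf, Inhbb) had the lowest levels, 25.2 CPM (20.3 to 30.9) and 91.4 CPM (75.6 to 109). Cells with a set led by Car8 had 104 CPM (74.0 to 141) and 468 CPM (458 to 478). That set was taken from earlier results of these data, in which Cyp26b1 was among the genes of the same cells, so its high level there is a description. Cells of neither state had 38.2 and 220 CPM. The log2 ratios were 2.48 in pericentral, 3.33 in periportal and 3.30 in cells of neither zone, 1.67 in large vessel cells, 1.86 in angiogenic cells, 2.18 in Car8-type cells and 2.53 in cells of neither state.

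The makeup of the endothelial class differed as well. Car8-type cells were 61 of 1724 endothelial cells in the control-labelled library and 1908 of 3389 in the knockout-labelled library, while angiogenic cells were 445 and 149 and large vessel cells 93 and 34. When the state levels of the knockout-labelled library were weighted by the mix of the control-labelled library, a comparison added after the data had been seen, Cyp26b1 had 205 CPM there, 5.06-fold above the control value, with a log2 ratio of 2.34. Under the same weights the ratio of Dhrs3 was 0.48, short of 1.5-fold, and that of Rarb 0.14.

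**Figure D3:**
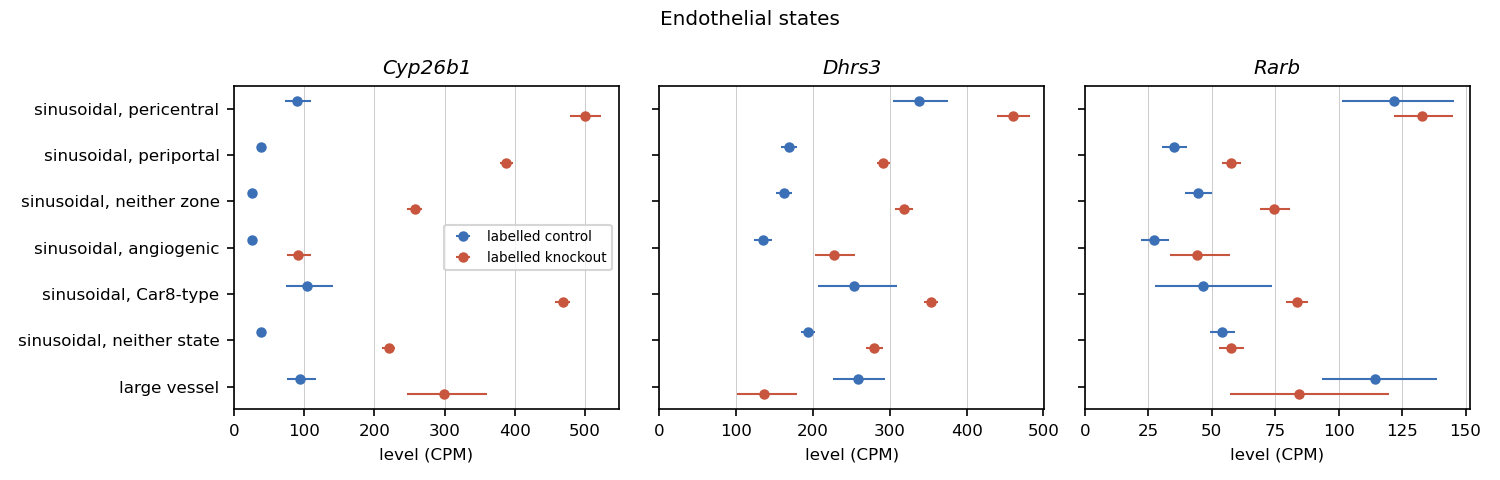
Level in CPM of Cyp26b1, Dhrs3 and Rarb (horizontal axes, linear) in endothelial zones, states and large vessel cells, with 1 point per library and bars for exact 95% Poisson intervals. Cyp26b1 was higher in the knockout-labelled library in all 7 groups, with 91.4 against 25.2 CPM in angiogenic cells and 500 against 89.5 CPM in pericentral cells, whereas Dhrs3 was lower in large vessel cells, at 136 against 258 CPM.

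Among the zones and large vessels, Dhrs3 was highest in pericentral cells at 338 CPM (304 to 376) and 460 CPM (439 to 482). Periportal cells had 168 and 291 CPM, cells of neither zone 162 and 318 CPM, and angiogenic cells 134 and 228 CPM. Large vessel cells went the other way, from 258 CPM (226 to 294) to 136 CPM (101 to 179), on 93 and 34 cells.

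Cyp26a1, the other breakdown gene, is known from hepatocytes, and in these libraries it was counted there. It had 10 counts in 269 hepatocytes of the control-labelled library, 4.17 CPM (2.00 to 7.67), and 92 counts in 85 hepatocytes of the knockout-labelled library, 26.7 CPM (21.5 to 32.7). The log2 ratio was 2.68 (1.73 to 3.78), and 3.35 with TMM factors. It was 4.35 with the stricter cell filter and 2.09 with thinned cells. A count was seen in 3.72% and 30.6% of hepatocytes, but in 1.12% of 269 and 4.76% of 84 cells after thinning, so the thinned ratio rests on few cells. In the knockout-labelled library the tenth of hepatocytes with the most counts held 67.4% of the counts, with up to 12 in a cell. In the control-labelled library the 10 counts lay in 10 cells with 1 each, too few for such a share. B and T cells together had 1 and 0 counts. Endothelial cells had 15 and 58 counts, 1.06 and 2.02 CPM, below the level needed to call the gene measured.

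The hepatocytes of the libraries differed in more than these genes. The 85 cells of the knockout-labelled library held 3448299 counts at a median of 6045 per cell, and the 269 of the control-labelled library held 2397287 at a median of 5799, so a few deep cells carried much of the sum in the former. Zonal genes were higher there at both ends, with Glul, a pericentral gene, at 205 and 689 CPM and Cyp2f2, a periportal gene, at 197 and 2447 CPM, while Alb had 39504 and 32929 CPM. The part of cell depth and zone in the Cyp26a1 difference was not tested.

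Rarb, the receptor, was found in endothelial and mesenchymal cells. Endothelial cells had 51.6 CPM (47.9 to 55.5) and 72.9 CPM (69.8 to 76.1), a log2 ratio of 0.50 (0.38 to 0.62), short of 1.5-fold. Stellate cells had 44.1 CPM (36.9 to 52.4) and 50.1 CPM (43.7 to 57.1), and contractile mesenchymal cells 33.0 CPM (26.7 to 40.4) and 27.7 CPM (15.8 to 44.98). The intervals of the mesenchymal classes overlapped between the libraries. Hepatocytes, mesothelial cells and Kupffer cells had between 3.85 and 8.34 CPM, where B and T cells together had 3.09 and 5.31 CPM. A count was seen in 25.1% and 33.3% of endothelial cells and 0.518% and 1.99% of T cells, and after thinning in 12.5% and 15.4% of endothelial cells and 0.518% and 0.664% of T cells.

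Among endothelial cells Rarb was highest in pericentral cells, at 122 and 133 CPM, and in large vessel cells, at 114 and 84.4 CPM, and lower in periportal cells, at 35.1 and 57.5 CPM. Its log2 ratio was 0.12 in pericentral cells (-0.16 to 0.42), 0.71 in periportal cells (0.49 to 0.94) and 0.75 in cells of neither zone (0.54 to 0.96). In cells of neither state it was 0.087 (-0.090 to 0.27), and in angiogenic cells 0.70 (0.20 to 1.19). In Car8-type cells it was 0.84 (0.18 to 1.60), on 18 counts in the control-labelled library. In large vessel cells it was -0.44 (-1.07 to 0.15).

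**Figure D4:**
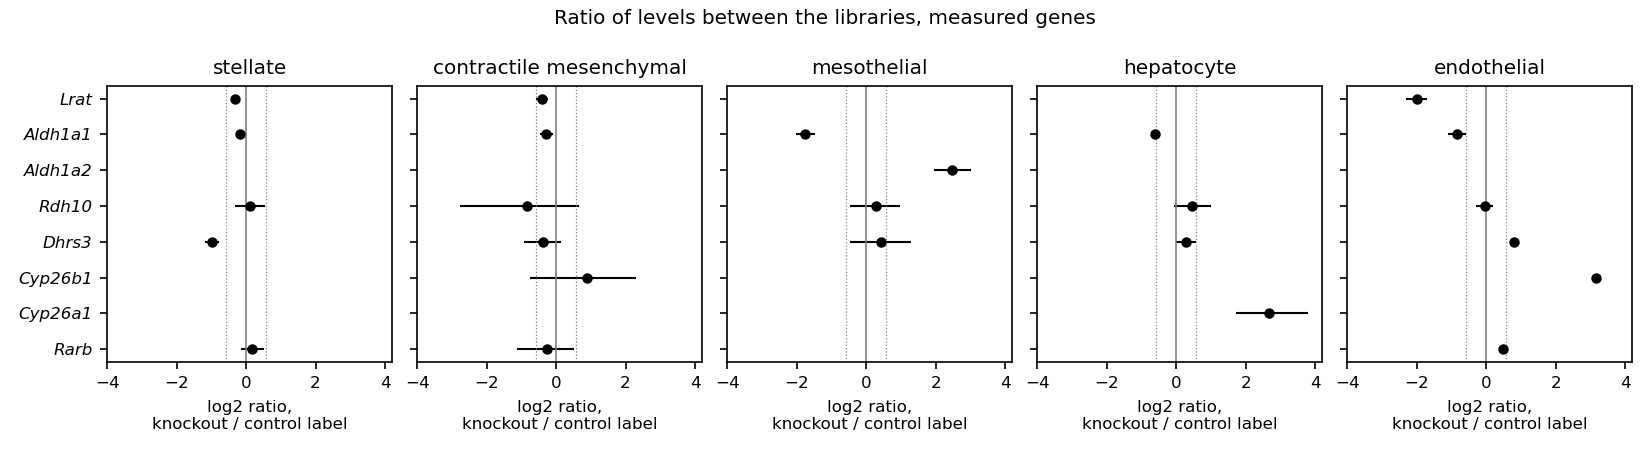
Log2 ratio of levels, knockout-labelled over control-labelled library (horizontal axis), for the measured genes of the 8 in 5 classes, with bars for exact 95% intervals of counting error and dotted lines at 1.5-fold. Cyp26b1 stood at 3.17 in endothelial cells, Aldh1a2 at 2.47 in mesothelial cells and Cyp26a1 at 2.68 in hepatocytes, while Dhrs3 was at 0.80 in endothelial and -0.99 in stellate cells.

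Genes of response and breakdown were then read in the same cells, after thinning. In endothelial cells of the control-labelled library, the 154 cells with a count of Cyp26b1 had 97.4 CPM of Rarb against 51.0 CPM in the 1570 without, and 260 CPM of Dhrs3 against 174 CPM. Both Cyp26b1 and Rarb were counted in 1.91% of cells, 1.71 times the product of their shares. In the knockout-labelled library, with 1475 and 1912 such cells, the contrast was smaller, at 74.4 against 62.9 CPM for Rarb and 349 against 301 CPM for Dhrs3. Cyp26b1 and Rarb were found together 1.08 times as often as the product. Cyp26b1 was counted in 8.93% and 43.5% of cells, so this value has a lower ceiling in the knockout-labelled library and cannot be compared with 1.71. Zones were pooled here, and their part in these contrasts was not tested. In Car8-type cells of that library Rarb had 76.7 and 77.4 CPM in cells with and without Cyp26b1, and in its cells of neither state 75.7 and 51.0 CPM. In stellate cells Lrat was so common that its joint share with Aldh1a1, 76.1% and 70.0%, was close to the product of the shares, 76.5% and 69.8%.

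Other genes of the pathway were read from 5 lists. As for the members, the rule for measured genes fixed the direction of any called list gene that reached 10 CPM in only 1 library. Such genes included Adh1 in endothelial, stellate and contractile mesenchymal cells, Hoxa5 and Fabp5 in stellate cells, and Bco1 and Rarg in hepatocytes. The 1 higher redox gene of contractile mesenchymal cells was another. The counts of list genes are therefore descriptions. The shares over all measured genes to set beside the endothelial counts are 5.26% higher and 12.5% lower, and beside the stellate counts 7.83% and 8.94%. In endothelial cells 4 of 5 receptor genes were measured and none was 1.5-fold apart, with Rarg, a retinoic acid receptor, at 140 and 162 CPM and Rara at 57.0 and 38.8 CPM. Of 11 genes known to respond to retinoic acid, 7 were measured, 1 was higher and 2 lower. Hic1, a transcriptional repressor, had 53.9 and 105 CPM, and Tgm2, a transglutaminase, 229 and 134 CPM. Cd38 had 550 and 565 CPM and Ripply3 187 and 240 CPM. Of ester storage and hydrolysis genes 3 of 9 were measured and 1 was lower, Lpl, the lipoprotein lipase, at 84.7 and 12.3 CPM. Uptake, binding and transport had 3 of 10 measured and 2 lower, and retinol and retinal redox 4 of 18 measured and 1 lower, Adh1, an alcohol dehydrogenase, at 21.3 and 4.63 CPM. Lpl was lower in each of the 5 classes compared. Adh1 had 3509 and 1862 CPM in hepatocytes. Hepatocyte markers summed to 374 and 115 CPM in endothelial cells and to 409 and 126 CPM in B cells. No B and T cell level was taken for the genes of the lists, and the part of free RNA in their differences was not tested.

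In stellate cells Bco1, which cleaves carotene into retinaldehyde, had 264 and 203 CPM, within 1.5-fold. Fabp5, a carrier of fatty acids and retinoic acid, had 25.9 and 6.23 CPM, and Lpl 319 and 167 CPM. Redox genes had 7 of 18 measured, 0 higher and 2 lower, and responsive genes 7 of 11 measured, 2 higher and 0 lower. The responsive genes that were higher, Hoxa5 at 5.39 and 12.7 CPM and Ripply3 at 11.8 and 17.8 CPM, were low in level. Receptors had 4 of 5 measured and none apart by 1.5-fold, with Rxra at 156 and 142 CPM. In contractile mesenchymal cells 5 of 6 measured redox genes were lower and 1 higher, beside 20.9% and 13.2% of all measured genes. Bco1 had 226 and 77.9 CPM there, while Adh1 and Aldh1a3 rested on 2 and 3 counts in the 37 cells of the knockout-labelled library.

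In mesothelial cells Rarg had 43.8 and 124 CPM and Rara 20.5 and 52.9 CPM, the 2 of 4 measured receptors that were higher, where 17.8% of all measured genes were. Dhrs9, a retinol dehydrogenase, had 6.84 and 52.9 CPM, and Lpl 338 and 28.0 CPM. In hepatocytes Rbp4 and Ttr, which carry retinol in plasma, had 2371 and 4772 CPM and 4086 and 8939 CPM. Retsat, which saturates retinol, had 24.2 and 132 CPM, Stra6l, a receptor for the retinol-binding protein, 26.7 and 85.8 CPM, and Ces1d, an esterase, 35.5 and 145 CPM. Of the measured hepatocyte genes, uptake, binding and transport had 3 of 5 higher and 2 lower, ester storage and hydrolysis 1 of 5 higher and 2 lower, and redox 3 of 12 higher and 4 lower. The receptors and the responsive genes each had 0 of 4 higher and 3 lower. Over all measured hepatocyte genes, 10% were higher and 56.7% lower.

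Across 30 points (15 classes in each of 2 libraries) and 9408 genes with at least 50 CPM in 1 point, the genes whose log2(CPM + 10) was most like that of each of the 8 genes were found by Pearson's r. The points share libraries and the likeness is a description. Cyp26b1 was most like Plppr5 (0.93), Cldn5 and Sox7, of which Cldn5 was one of the markers that gated endothelial cells. Rarb was most like Jcad (0.92), Tshz2 and Epas1, and Dhrs3 like Dock1 (0.89), Ctnnd1 and Dusp3. Lrat was most like Gdf2 (0.98), Fam171b and Ntn1, Aldh1a1 like Fxyd1 (0.93), Gstt1 and Cp, and Aldh1a2 like Vat1l (0.91), Kcnab1 and Lvrn. Cyp26a1 was most like Ces1f (0.98), Mup21 and Ppp1r3g, and Rdh10 had the weakest likeness, to Pard6b (0.71), Gata5 and Lrrn4, the last a marker that gated mesothelial cells.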

How the data were processed

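The BD Rhapsody whole transcriptome assay was run on liver cells of 1 mouse for each genotype label, per the labels' protocols. The authors deposited unnormalized counts, whole numbers for each gene symbol and barcode. GRCm39 is the build in the submitters' processing notes. Aligner, counting tool, cell calling and any collapse of molecular identifiers are not named in those sources. Counts may therefore not be independent molecules, and intervals may be too narrow.

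Cells needed 300 genes, 500 counts and no more than 25% mitochondrial counts, which kept 7917 and 8799 of 10000 barcodes, at medians of 7972 and 9506 counts. Scrublet (Scanpy 1.11.5) marked 1 doublet per library by its own threshold and had not worked, so the 5% of cells with the highest scores were removed. Each cell was scored for each marker list as the mean of marker log values, scaled to the 90th percentile of positive cells. A cell joined a class with a score of at least 0.3 and no other lineage above 0.5 of it. These limits were set after the score distributions had been seen. CPM came from summed counts. Levels have exact Poisson intervals, ratios exact conditional ones (SciPy 1.17.1) and shares exact Clopper-Pearson ones. A list gene was named if among the 2 highest by CPM or the 2 largest ratios of at least 1.5-fold; only some are printed, and 1 gene of the lists is not reported here. TMM factors came from edgeR 4.0.16, with no test. The ratio code was tested on simulated data.

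The members, lists and tests were chosen with earlier results of these data known. Window sequences are from RefSeq.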

Additional observations from a re-analysis of the deposited data

Results flagged for a closer look

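Dhrs3 differed in opposite directions in 2 cell types under the same contrast: its log2 ratio, knockout-labelled over control-labelled library, was 0.80 in endothelial cells and -0.99 in stellate cells. With 1 library per label, the difference between these ratios was not tested. The endothelial ratio stayed between 0.48 and 0.90 and the stellate ratio between -1.13 and -0.37 over the alternatives run. The values nearest 0, at the mix of states of the control-labelled library and with clusters, are short of 1.5-fold.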

How the results depend on the processing

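Of 253 log2 ratios recomputed under an alternative, 232 kept their sign. Of ratios reported as at least 1.5-fold apart, 6 recomputed values changed sign. The endothelial ratio of Cyp26b1 stayed between 2.34 and 3.27. It was 3.02 with cells thinned to equal depth and 2.34 at the mix of states of the control-labelled library, an alternative chosen after seeing the data. That mix also turned the endothelial ratio of Aldh1a1 to 0.23. The hepatocyte ratio of Aldh1a1 was 0.034 with thinned cells, 0.045 as a mean of cell CPM and 0.057 with TMM factors. In contractile mesenchymal cells, Cyp26b1 was -0.48 after subtraction of the B and T cell level, and Rdh10 was 0.12 as a mean of cell CPM. Among ratios within 1.5-fold, values outside the counting interval with a changed sign were Lrat in stellate cells at 0.14 with clusters, Aldh1a1 in contractile mesenchymal cells at 0.046 with thinned cells and 0.22 as a mean of cell CPM, and Dhrs3 and Rdh10 in mesothelial cells at -2.84 and -0.84 with the stricter gate.

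The number of members at least 1.5-fold apart moved as follows. In stellate cells it went from 1 to 0 at 2-fold, and with clusters it stayed at 1 although Dhrs3 no longer passed. In contractile mesenchymal cells it went from 2 to 1 with the looser cell filter and with the mean of cell CPM, and to 0 with thinned cells, with subtraction, at 2-fold and at 50 CPM. In mesothelial cells it went from 2 to 4 with the stricter gate and with clusters, and to 3 with subtraction. In hepatocytes it went from 2 to 1 with thinned cells, with the mean of cell CPM, at 2-fold and at 50 CPM, and to 3 with TMM factors, with the looser cell filter, with doublets kept and with subtraction. In endothelial cells it went from 4 to 2 with subtraction, at 2-fold and at 50 CPM, and to 5 with TMM factors. The cause was not tested in any of these, apart from stricter limits that by construction let fewer genes pass. Of 288 recomputed levels, 54 moved beyond their interval.

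No paired analysis was possible because each label has 1 library. No leave-one-out was possible for the same reason, and the clusters gave no value for contractile mesenchymal cells, which formed no cluster with cells of both libraries. Depth limits Cyp26a1, Aldh1a2 and every value of the 15 mesothelial and 37 contractile mesenchymal cells of the knockout-labelled library.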

Other observations

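These values were picked after they had been seen. Aldh1a1 was also a gene of cholangiocytes, the cells of bile ducts, at 635 CPM (565 to 711) in the 36 such cells of the knockout-labelled library, and the control-labelled library held only 3. In large vessel endothelial cells Aldh1a1 had 15.7 CPM (8.58 to 26.3) in the control-labelled library and 182 CPM (141 to 232) in the knockout-labelled library, where its 67 counts came from 7 of 34 cells. Rdh10 had 15.7 and 43.6 CPM in the same cells, on 14 and 16 counts. Erythroid cells had 1 count of Aldh1a1 in 25 cells of the control-labelled library and 62 counts in 32 cells of the knockout-labelled library, 369 CPM (283 to 473). Aldh1a2 was counted in dendritic cells, which present antigen, at 21.5 CPM (13.7 to 32.3) and 3.03 CPM (0.99 to 7.08), on 23 and 5 counts.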
